A study of Homo sapiens with 8 samples.

Results

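The metalloprotease genes of the MMP, ADAM and ADAMTS families and the genes of their TIMP inhibitors were examined in UM-UC-3 and RT112 cells. They were chosen by gene symbol alone, as MMP, ADAM or ADAMTS with a number or TIMP with a number, and 66 of the 27475 human genes in the table carried such a symbol: 23 MMP, 20 ADAM, 19 ADAMTS and 4 TIMP genes. UM-UC-3 and RT112 are established human bladder cancer cell lines. Each line was transfected with 100 pmol of siRNA for 72 h, either 3 pooled siRNAs directed at PAI-1 (siPAI-1), or 3 pooled scrambled ones (Scr), and RNA-seq was performed on 2 libraries of each of the 4 groups. Every library therefore comes from transfected cells, and each condition rests on 1 cell line and 1 siRNA pool. The first question was how the repertoire differs between the lines in Scr. The second was whether it moved with the depletion of PAI-1 in either line.

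MMPs are zinc-dependent endopeptidases that cut collagens and other matrix proteins, and most are secreted as inactive precursors while the membrane-type MMPs act at the cell surface. ADAMs are membrane-bound relatives, several of which shed growth factors, cytokine precursors and receptors from the cell surface, and ADAMTS proteases are secreted, with substrates such as procollagens, proteoglycans and other matrix proteins. TIMPs bind the active sites of MMPs and block them, and TIMP3, which stays bound to the matrix, also inhibits several ADAM and ADAMTS proteases. Plasmin, which plasminogen activators make, can activate several MMP precursors.

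All levels below are in TPM, the relative abundance of a gene's transcripts scaled to gene length and to the library total, and a value of 0 is described as listed at 0. Depth was estimated at 29.22 to 34.08 M reads per library. Replicates correlated at r = 0.985 to 0.987 on the log2 scale across genes, which are not independent replicates. Markers of the lines differed widely: the summed level of 7 epithelial markers, among them EPCAM and CDH1, was 218 to 237 TPM in UM-UC-3 and 10830 to 12333 TPM in RT112, and VIM, a mesenchymal marker, was at 2852 to 3142 TPM in UM-UC-3 and at 6.04 to 8.09 TPM in RT112. ZEB1 went the same way (43.14 to 48.34 TPM against 0.21 to 0.26 TPM), while CDH2, the remaining mesenchymal marker, was at 10.61 and 9.22 TPM in UM-UC-3 Scr and at 18.19 and 20.58 TPM in RT112 Scr. All 6 leukocyte markers together stayed at or under 0.95 TPM and all 4 endothelial markers at or under 2.35 TPM. The 6 fibroblast markers summed to 135 to 154 TPM in UM-UC-3 and 17.8 to 25.6 TPM in RT112, but COL3A1 alone made up 128.85 to 147.66 TPM of the former, and LUM was higher in RT112 (10.67 to 17.97 TPM against 0.19 to 1.31 TPM). EPCAM and CDH1 themselves, the defining epithelial genes, were at or under 0.48 TPM in every UM-UC-3 library. KRT18 made up 166.92 to 185.71 TPM of the epithelial sum in UM-UC-3, KRT8 31.24 to 42.09 TPM and KRT7 7.99 to 10.93 TPM. The remaining epithelial markers, KRT19 and GRHL2, were at or under 2.89 TPM there. The part of this difference in cell state in the differences between the lines below was not tested, and in bulk RNA a lower share of expressing cells cannot be told apart from less RNA per cell.

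Of the 66 genes, 33 were above 0 in all 8 libraries and 9 were listed at 0 in all of them. These 9 were MMP8, MMP20, MMP21, MMP26, MMP27, ADAM7, ADAM18, ADAM30 and ADAMTS10. At a mean of 1 TPM over the 4 libraries of a line, 16 genes were present in both lines, 10 in UM-UC-3 only and 9 in RT112 only, and the other 31 were below that level in both. The UM-UC-3-only set held 5 ADAMTS genes (ADAMTS2, ADAMTS3, ADAMTS5, ADAMTS6 and ADAMTS14), 3 MMPs (MMP9, MMP16 and MMP17) and 2 ADAMs (ADAM11 and ADAM12). The RT112-only set held 4 MMPs (MMP12, MMP13, MMP19 and MMP28), 2 ADAMs (ADAM8 and ADAM28), 2 ADAMTS genes (ADAMTS7 and ADAMTS15) and TIMP3. A mean of 10 TPM was reached by 17 genes in either line and by 9 in both.

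**Figure D1:**
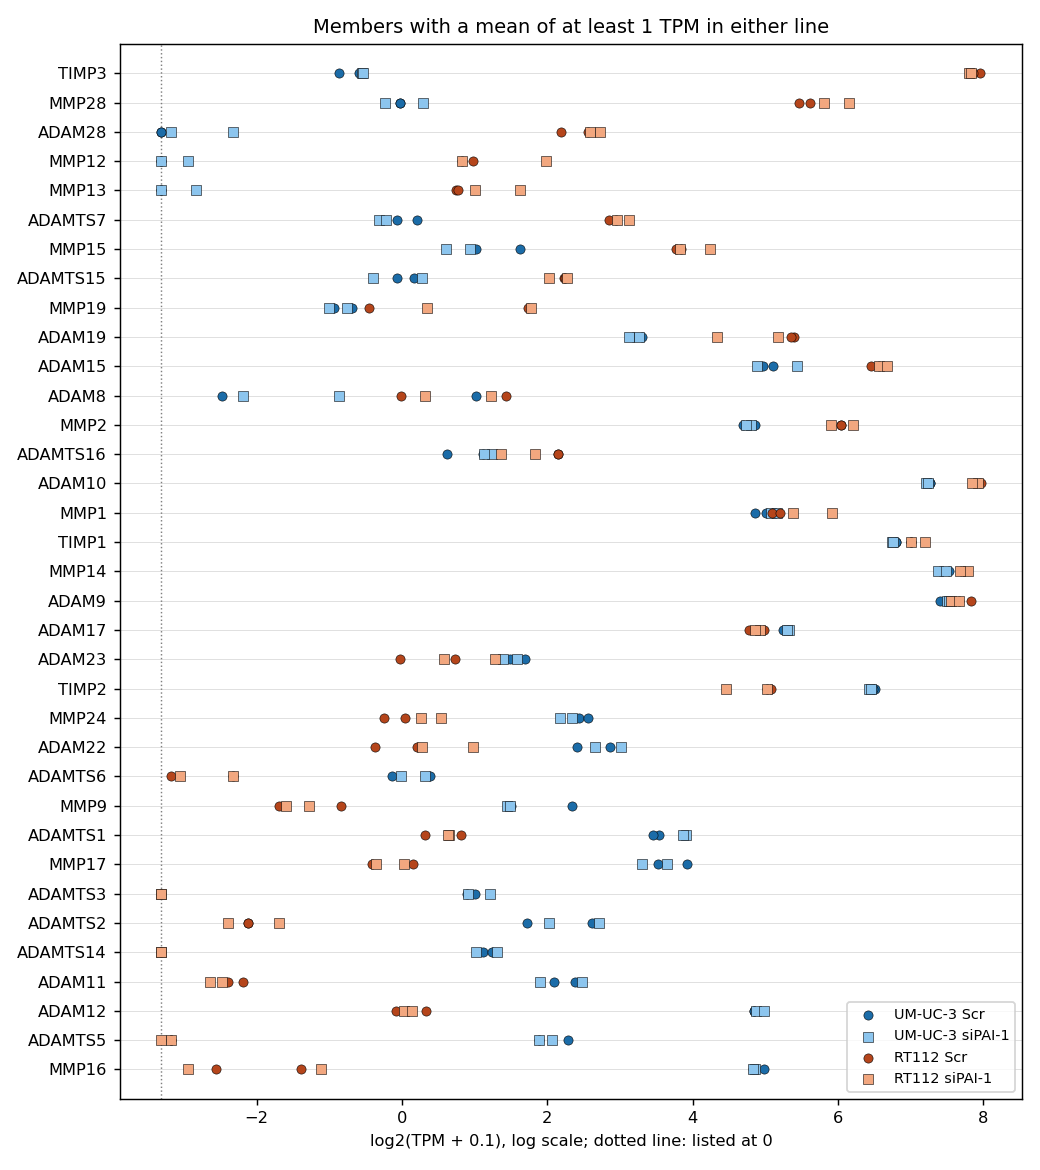
Each row is one of the 35 genes whose mean reached 1 TPM in either line, and each point is 1 library on the scale log2(TPM + 0.1), with UM-UC-3 in blue and RT112 in red, circles for Scr and squares for siPAI-1. Genes are ordered by the difference between the lines, from TIMP3 at the top (0.45 to 0.59 TPM in UM-UC-3 and 223.74 to 249.19 TPM in RT112) to MMP16 at the bottom, and circles and squares of one colour mostly lie close together.

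In the comparison of the lines in Scr, 54 of the 66 genes were above 0 in at least 1 of the 4 libraries and could be tested. RT112 was higher for 18 of them, where 25.3% of all genes tested were called higher, and lower for 20, where 26.3% of all genes were called lower (limma on log2(TPM + 0.1), adjusted p under 0.05 over 19201 genes). In total 70.4% of the members tested differed, against 51.6% of all genes. Their median log2 difference of 0.05, RT112 minus UM-UC-3, was near that of all genes (-0.06), so the differences went in both directions. By family, 7 MMPs were higher and 5 lower in RT112 of 18 tested, 5 ADAMs were higher and 5 lower of 15, and 4 ADAMTS genes were higher and 9 lower of 17. Of the 4 TIMPs, 2 were higher and 1 lower.

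The summed level of each family gives the size of the pool. TIMP transcripts summed to 203 and 201 TPM in UM-UC-3 Scr and to 410 and 394 TPM in RT112 Scr, a log2 ratio of the means of 0.99. MMP transcripts summed to 308.5 and 277 TPM in UM-UC-3 Scr and to 377 and 386 TPM in RT112 Scr, and ADAM transcripts to 462 and 446 TPM against 652 and 620 TPM. ADAMTS transcripts went the other way, with 31.8 and 28.9 TPM in UM-UC-3 Scr and 18.2 and 18.7 TPM in RT112 Scr. In all 4 sums the libraries of the lines did not overlap; with 2 libraries against 2 no exact test can pass the threshold, and none was made.

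Among the inhibitors, TIMP3 had the largest difference on the log2(TPM + 0.1) scale. Members listed at 0 in a line have no defined ratio and cannot be ranked against it. It was at 0.45 and 0.56 TPM in UM-UC-3 Scr and at 249.19 and 231.51 TPM in RT112 Scr, a ratio of the means of 476. The log2 difference was 8.64 ± 0.14 (SE), with an adjusted p of 0.000242 (limma, Benjamini-Hochberg). In the siPAI-1 libraries the same gene was at 0.58 and 0.59 TPM in UM-UC-3 and at 223.74 and 227.87 TPM in RT112, so that no library came near the range of the other line. The UM-UC-3 values stand for an estimated 41.5 to 61.5 reads per library at most, and those of RT112 for 20983 to 23626 reads. TIMP3 (ENSG00000100234.11, chromosome 22, 32801705 to 32863041 in GRCh38.p14) lies within SYN3, a synapsin gene, which was at or under 0.5 TPM in every library.

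TIMP2, which inhibits MMPs and also takes part in the activation of MMP2 by MMP14, had the opposite direction. It was at 91.34 and 89.54 TPM in UM-UC-3 Scr and at 32.39 and 33.65 TPM in RT112 Scr, a log2 difference of -1.45 ± 0.06 with an adjusted p of 0.000484 in limma. TIMP1, a secreted inhibitor of many MMPs, was the most even of the 3 well expressed inhibitors, with 111.58 and 111 TPM in UM-UC-3 Scr and 128.03 and 129.1 TPM in RT112 Scr. Its log2 difference of 0.21 ± 0.05 had an adjusted p of 0.024 in limma, and of 0.166 when the spread was moderated without a trend on the mean. Without RT112 Scr replicate 1 or 2 its adjusted p was 0.0648 or 0.0691. TIMP4 was listed at 0 in 6 libraries and was at 0.19 TPM in RT112 Scr replicate 2 and 0.06 TPM in RT112 siPAI-1 replicate 2.

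The composition of the inhibitor pool differed as well as its size. The larger sum in RT112 Scr rests on TIMP3. TIMP1 had means of 111.29 TPM in UM-UC-3 Scr and 128.565 TPM in RT112 Scr, and TIMP2 of 90.44 and 33.02 TPM. Without TIMP3 the TIMP sum would be lower in RT112. TIMP3 made up 0.22% to 0.3% of the summed TIMP level in the UM-UC-3 libraries and 57.1% to 60.8% in the RT112 libraries. The share of TIMP2 was 44.4% to 44.9% in UM-UC-3 and 5.6% to 8.53% in RT112. The summed TIMP level divided by the summed MMP level was 0.659 to 0.726 over the 4 UM-UC-3 libraries and 0.876 to 1.09 over the 4 RT112 libraries, which did not overlap. Without TIMP3 this ratio, too, would be lower in RT112 than in UM-UC-3. These are ratios of transcript levels, and neither protein nor enzyme activity was measured here.

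**Figure D2:**
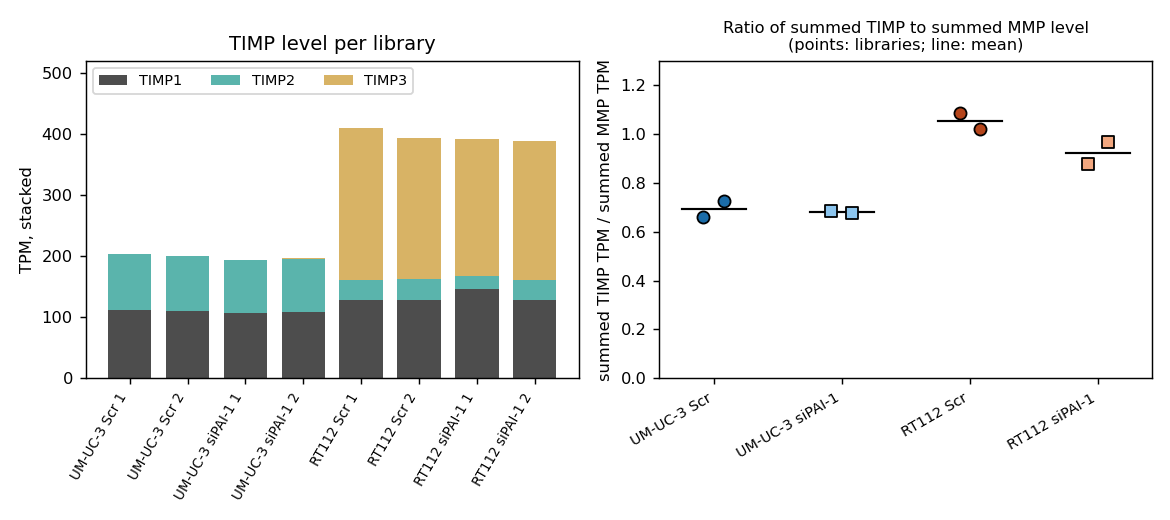
Left, TPM of TIMP1, TIMP2 and TIMP3 stacked for each of the 8 libraries; right, the summed TIMP level divided by the summed MMP level, with 1 point per library and a line at the mean of each group. The TIMP3 part is visible only in RT112, and all 4 RT112 ratios (0.876 to 1.09) lie above all 4 UM-UC-3 ratios (0.659 to 0.726).

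The promoters of the most uneven and the most even of the 3 well expressed inhibitors are shown side by side, as the 150 bases just before the RefSeq transcription start in GRCh38.p14, 5′ to 3′ on the strand of the gene. Capitals mark GC boxes, searched as GGGCGG on both strands, which are binding motifs of SP1-type factors. TIMP3 lies on the plus strand (chr22:32801555-32801704) and TIMP1 on the plus strand (chrX:47582286-47582435).
TIMP3: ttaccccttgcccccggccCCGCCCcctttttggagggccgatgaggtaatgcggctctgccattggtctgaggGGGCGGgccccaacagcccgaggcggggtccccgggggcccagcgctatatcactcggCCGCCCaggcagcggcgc
TIMP1: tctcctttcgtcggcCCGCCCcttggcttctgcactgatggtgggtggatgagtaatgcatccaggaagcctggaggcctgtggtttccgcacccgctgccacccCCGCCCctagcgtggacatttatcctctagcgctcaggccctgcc
The TIMP3 stretch holds 3 GC boxes and 13 CpG dinucleotides and the TIMP1 stretch 2 GC boxes and 8 CpG dinucleotides. A GC box was present before both genes, and its part in their levels was not tested.

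The 6 membrane-type MMPs divided between the lines. MMP14, which activates MMP2 and cuts fibrillar collagen at the cell surface, was the highest MMP in both, with 185.18 and 169.07 TPM in UM-UC-3 Scr and 207.74 and 212.46 TPM in RT112 Scr. Its log2 difference of 0.25 ± 0.06 had an adjusted p of 0.0358 in limma, and of 0.157 without the trend on the mean. Left out in turn, UM-UC-3 Scr replicate 2 and each of the RT112 Scr libraries took its adjusted p to 0.0782, 0.197 and 0.228. MMP14 alone made up 59.1% to 61.8% of the summed MMP level in UM-UC-3 and 49.7% to 55.1% in RT112.

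MMP16, a membrane-type enzyme, was at 31.62 and 28.49 TPM in UM-UC-3 Scr and at 0.07 and 0.28 TPM in RT112 Scr. MMP17, which is anchored by a lipid instead of a transmembrane stretch, was at 15.09 and 11.45 TPM against 1.01 and 0.65 TPM. MMP24 was at 5.31 and 5.79 TPM against 0.74 and 0.93 TPM. All 3 were lower in RT112, with log2 differences of -6.89 ± 0.45, -3.86 ± 0.30 and -2.60 ± 0.24 and adjusted p of 0.00104, 0.00148 and 0.00213 in limma. Leaving out UM-UC-3 Scr replicate 1 or 2 raised the adjusted p to 0.0624 or 0.0612 for MMP16 and to 0.0585 or 0.0531 for MMP17, and leaving out replicate 2 raised that of MMP24 to 0.0503. MMP15 had the reverse pattern, with 2.98 and 1.92 TPM in UM-UC-3 Scr and 13.56 and 14.16 TPM in RT112 Scr (log2 difference 2.48 ± 0.25, adjusted p 0.00295 in limma, 0.0874 and 0.09 without RT112 Scr replicate 1 and 2). MMP25, the remaining member of the class, was at 0.39 to 0.74 TPM in all 8 libraries and did not pass the test.

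The gelatinases MMP2 and MMP9, which cut denatured collagen and collagen of basement membranes, differed in opposite directions. MMP2 was at 28.82 and 25.75 TPM in UM-UC-3 Scr and at 65.59 and 65.67 TPM in RT112 Scr, a log2 difference of 1.27 ± 0.08 with an adjusted p of 0.00102 in limma. MMP9, singled out after its values were seen as the other gelatinase, was at 4.98 and 2.73 TPM against 0.21 and 0.46 TPM (log2 difference -3.19 ± 0.49, adjusted p 0.00883). MMP2 was thus the dominant gelatinase transcript in both lines.

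MMP28, or epilysin, a secreted MMP of epithelia, was the MMP with the smallest p among those higher in RT112. It was at 0.88 TPM in both UM-UC-3 Scr libraries and at 44.05 and 49.09 TPM in RT112 Scr, a ratio of 52.9 and a log2 difference of 5.57 ± 0.14 with an adjusted p of 0.00028 in limma. In RT112 it ranked above MMP1, and in UM-UC-3 it was near the limit of 1 TPM. MMP28 (ENSG00000271447.5) lies on chromosome 17, 35756249 to 35795641 in GRCh38.p14.

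A cluster of 9 MMP genes spans 435 kb of chromosome 11 (102520508 to 102955732 in GRCh38.p14), and neighbours in it had unlike levels. MMP1, interstitial collagenase, was the well expressed gene of the group in both lines, with 32.19 and 28.97 TPM in UM-UC-3 Scr and 33.96 and 36.8 TPM in RT112 Scr. Its log2 difference of 0.21 ± 0.09 did not pass the test (adjusted p 0.139, limma). MMP12, a macrophage elastase, was listed at 0 in both UM-UC-3 Scr libraries and was at 1.86 and 1.68 TPM in RT112 Scr (adjusted p 0.00115). MMP13, or collagenase 3, was likewise listed at 0 in both UM-UC-3 Scr libraries and was at 1.57 and 1.6 TPM in RT112 Scr (adjusted p 0.0012). Both were above 1 TPM in all 4 RT112 libraries and at or under 0.04 TPM in all 4 UM-UC-3 libraries.

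MMP3, stromelysin 1, lies between MMP1 and MMP12 and had the reverse pattern of MMP12 and MMP13. MMP3 and MMP10, which lie on either side of MMP1 and are named here after their values were seen because of their place, were low in both lines. MMP3 was at 0.26 and 0.4 TPM in UM-UC-3 Scr and was listed at 0 in all 4 RT112 libraries (adjusted p 0.00813, limma). MMP10, or stromelysin 2, was at 0.06 and 0.03 TPM in UM-UC-3 Scr and 0.72 and 0.2 TPM in RT112 Scr (adjusted p 0.0703). MMP7 was listed at 0 in all UM-UC-3 libraries and stayed at or under 0.18 TPM in RT112, and MMP8, MMP20 and MMP27 were listed at 0 throughout.

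**Figure D3:**
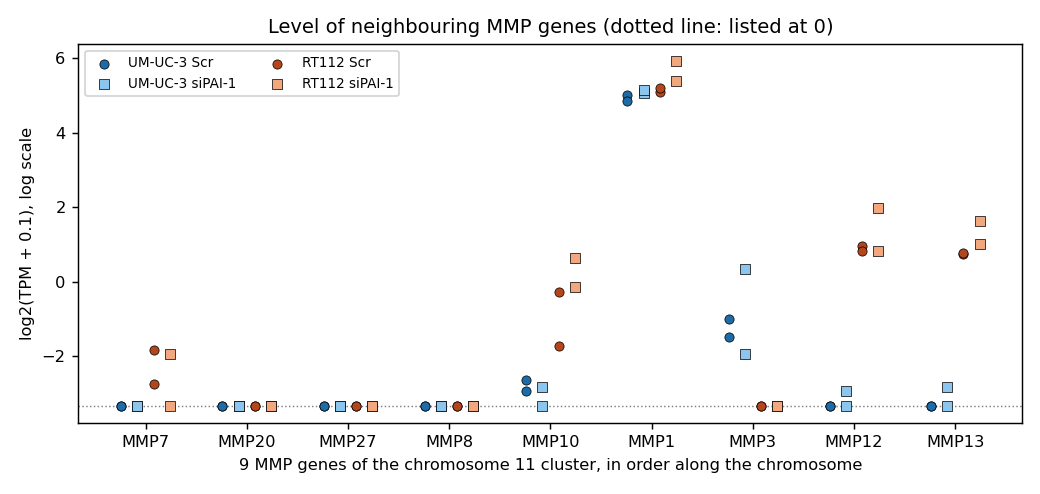
The 9 MMP genes of chromosome 11 are placed in their order along the chromosome, with log2(TPM + 0.1) of each of the 8 libraries (UM-UC-3 in blue, RT112 in red, circles for Scr, squares for siPAI-1). MMP1 stands at 28.97 TPM or more in every library, MMP12 and MMP13 are raised in RT112 alone, MMP3 is above 0 in UM-UC-3 alone, and MMP20, MMP27 and MMP8 lie on the line for 0.

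Among the ADAMs, the sheddases expressed in most cell types dominated in both lines, and ADAM9 and ADAM10 together made up 70.5% to 73.4% of the summed ADAM level in every library. ADAM10, the main sheddase of Notch receptors and cadherins, was at 154.73 and 154.58 TPM in UM-UC-3 Scr and at 246.44 and 251.7 TPM in RT112 Scr (log2 difference 0.69 ± 0.04, adjusted p 0.000939 in limma). ADAM17, the sheddase of the TNF precursor and of several EGF receptor ligands, was at 39.83 and 37.8 TPM against 31.42 and 27.22 TPM (log2 difference -0.41 ± 0.10, adjusted p 0.0327). ADAM9 was at 179.53 and 168.81 TPM against 227.09 and 203.05 TPM (log2 difference 0.30 ± 0.08, adjusted p 0.0355).

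The calls of ADAM9 and ADAM17 were the least stable of these. Without the trend on the mean, their adjusted p was 0.129 and 0.0832. With each Scr library left out in turn, it ranged from 0.0891 to 0.252 for ADAM9 and from 0.062 to 0.224 for ADAM17. ADAM17 shares part of its span with IAH1 (35.15 to 54.39 TPM) and ADAM9 with TM2D2 (27.47 to 36.05 TPM), and reads of overlapping genes cannot be told apart here. ADAM15, which carries an integrin-binding disintegrin domain, was at 34.28 and 31.25 TPM in UM-UC-3 Scr and 94.43 and 87.67 TPM in RT112 Scr (log2 difference 1.47 ± 0.08, adjusted p 0.00077).

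Several ADAMs of restricted expression differed by more. ADAM12, a protease of myogenic and mesenchymal cells that cleaves IGF-binding proteins, was at 28.61 and 28.56 TPM in UM-UC-3 Scr and at 1.16 and 0.84 TPM in RT112 Scr. Its log2 difference was -4.72 ± 0.20, with an adjusted p of 0.000502 (limma). ADAM19, a related sheddase of neuregulins, was at 9.81 and 8.92 TPM against 41.83 and 40.98 TPM, a log2 difference of 2.13 ± 0.09 with the same adjusted p. These related genes thus went in opposite directions, with ADAM12 higher in UM-UC-3 and ADAM19 higher in RT112.

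ADAM28, known from lymphocytes and carcinomas, was listed at 0 in both UM-UC-3 Scr libraries and was at 5.77 and 4.46 TPM in RT112 Scr (adjusted p 0.000744, limma). ADAM11, which lacks the protease's catalytic residues and is known from the nervous system, was at 4.15 and 5.09 TPM in UM-UC-3 Scr and at 0.09 and 0.12 TPM in RT112 Scr (log2 difference -4.52 ± 0.30, adjusted p 0.00102). ADAM22, a synaptic receptor of LGI proteins named here after its values were seen, was at 5.21 and 7.14 TPM against 0.67 and 1.05 TPM (log2 difference -2.72 ± 0.33, adjusted p 0.00445).

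The ADAM12 promoter is printed as that of a UM-UC-3-high member (minus strand, chr10:126388478-126388627, 150 bases before the start, capitals as above).
ADAM12: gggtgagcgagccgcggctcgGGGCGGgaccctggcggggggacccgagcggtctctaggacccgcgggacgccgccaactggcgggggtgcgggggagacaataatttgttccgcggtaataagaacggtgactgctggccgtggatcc
It holds 1 GC box and 18 CpG dinucleotides.

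The ADAMTS family was the only one with a lower sum in RT112 Scr. All 3 procollagen N-proteinases, which remove the amino-terminal propeptides of fibrillar procollagens, were lower in RT112. ADAMTS14 was at 2.06 and 2.27 TPM in UM-UC-3 Scr and ADAMTS3 at 1.76 and 1.9 TPM, and both were listed at 0 in all 4 RT112 libraries (adjusted p 0.00101 and 0.00111 in limma). ADAMTS2, named as the other member of the class after its values were seen, was at 6.04 and 3.18 TPM against 0.13 TPM in both RT112 Scr libraries (log2 difference -4.29 ± 0.42, adjusted p 0.00252). BMP1, the protease that removes the carboxy-terminal propeptides and belongs to another family, was higher in RT112, with 19.96 and 19.59 TPM in UM-UC-3 Scr and 41.61 and 39.4 TPM in RT112 Scr (log2 difference 1.03 ± 0.07, adjusted p 0.00126).

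Of the 7 proteoglycanases of the family, 6 were tested, with 2 higher and 3 lower in RT112. The 2 higher ones, named after their values were seen, were ADAMTS15 and ADAMTS9. ADAMTS15 had means of 0.935 TPM in UM-UC-3 Scr and 4.61 TPM in RT112 Scr (adjusted p 0.00299 in limma). ADAMTS9 had means of 0 and 0.185 TPM (adjusted p 0.0188). ADAMTS1, which cuts versican and aggrecan, was at 11.52 and 10.9 TPM in UM-UC-3 Scr and at 1.15 and 1.66 TPM in RT112 Scr, a log2 difference of -2.93 ± 0.24 with an adjusted p of 0.00167 in limma (0.0647 and 0.0635 without UM-UC-3 Scr replicate 1 and 2). ADAMTS5, a major aggrecanase of cartilage, was at 4.78 and 3.6 TPM in UM-UC-3 Scr and at 0.01 TPM in both RT112 Scr libraries (adjusted p 0.000884). The ADAMTS1 and ADAMTS5 genes are neighbours on chromosome 21, 72.5 kb apart in GRCh38.p14, and both were lower in RT112. ADAMTS7, which cuts the matrix protein COMP and was not counted among the proteoglycanases, was at 1.05 and 0.85 TPM in UM-UC-3 Scr and at 7.58 and 7.1 TPM in RT112 Scr (log2 difference 2.83 ± 0.22, adjusted p 0.00144).

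The ADAMTS14 promoter is shown as that of a gene listed at 0 in every RT112 library (plus strand, chr10:70672356-70672505, capitals as above).
ADAMTS14: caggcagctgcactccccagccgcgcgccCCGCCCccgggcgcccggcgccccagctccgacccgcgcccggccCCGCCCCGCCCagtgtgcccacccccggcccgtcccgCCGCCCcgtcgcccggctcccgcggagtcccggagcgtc
With 4 GC boxes and 25 CpG dinucleotides it is the richest in both of the 4 stretches shown.

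RefSeq promoter windows of 300 bases, from 250 before to 50 after the start, were on hand for 39 of the 66 genes. A GC box lay in 26 of the 39, or 66.7%, against 45% of all 35116 windows. It lay in 9 of the 10 windows of genes expressed in both lines, in 4 of 5 of the UM-UC-3-only genes and in all 3 of the RT112-only genes. Of the windows of genes under 1 TPM in both lines, 9 of 14 held it (64.3%), and of those listed at 0 throughout, 1 of 7. The AP-1 motif, searched as TGANTCA on both strands, lay in 4 windows, or 10.3%, against 7.71% of all windows. These 4 belong to MMP7, MMP10, MMP20 and ADAMTS12, all under 1 TPM in both lines. No window was on hand for MMP1, MMP2, MMP3, MMP9, MMP12, MMP13, MMP28 and TIMP2, among others, so these genes were not searched for either motif. These counts describe letters in a window and are not binding sites.

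The same comparison of the lines was made in the 4 siPAI-1 libraries, which share no library with the first. Of 57 genes tested, 17 were higher in RT112, where 26.2% of all genes were called higher, and 18 lower, where 26.1% were called lower (limma, 19359 genes). Of the 38 genes that passed in Scr, 38 had the same sign in the siPAI-1 libraries and 32 passed there too, and no gene passed in opposite directions. TIMP3 had a log2 difference of 8.37, MMP28 of 5.95, MMP16 of -6.88, ADAM12 of -4.84 and TIMP2 of -1.70. The 6 genes that passed in Scr alone were MMP3, ADAMTS9, ADAMTS16, ADAM9, ADAMTS19 and ADAM23, and the 3 that passed in the siPAI-1 libraries alone were MMP10, ADAMTS12 and ADAM8. The line difference of ADAM9 was 0.30 in Scr and 0.10 in siPAI-1 (adjusted p 0.215).

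**Figure D4:**
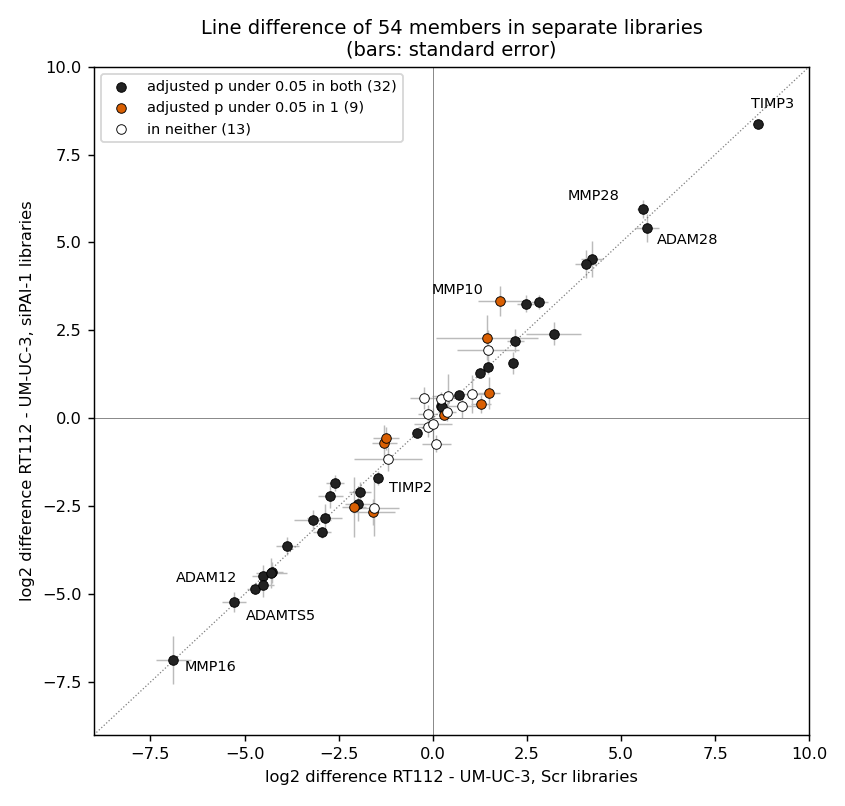
Each point is one of the 54 genes tested in both fits, with the log2 difference RT112 minus UM-UC-3 in the Scr libraries on the x axis and in the siPAI-1 libraries on the y axis, and bars of 1 SE. The 32 filled points passed in both, the 9 orange points in 1 of them and the 13 open points in neither, and most points lie near the dotted line of equal differences.

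With PAI-1 depletion, no metalloprotease or TIMP passed the adjusted threshold in either line, nor did any gene of the table, although the unadjusted p was under 0.05 for 1114 genes in UM-UC-3 and for 1063 in RT112 (limma). In UM-UC-3, at an unadjusted p under 0.05, 1 of 53 members tested was higher with siPAI-1, where 2.6% of all 18528 genes were higher, and 0 were lower, where 3.41% of all genes were lower. In RT112 the counts were 2 of 51 higher, where 3.35% of all 18437 genes were higher, and 0 lower, where 2.42% were lower. The share of members past this threshold in UM-UC-3 was 1.89%, below the share of all genes in either direction together (6.01%), and in RT112 it was 3.92% against 5.77%. The median log2 difference of the members, siPAI-1 minus Scr, was 0.06 in UM-UC-3 and in RT112, against -0.01 and 0.01 over all genes.

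The member past the unadjusted threshold in UM-UC-3 was ADAMTS1. It was at 11.52 and 10.9 TPM in Scr and at 14.87 and 14.47 TPM in siPAI-1, so the groups did not overlap, and the log2 difference was 0.39 ± 0.11 (limma, unadjusted p 0.017, adjusted p 0.791). In 1 fit over all 8 libraries its unadjusted p was 0.106, and with siPAI-1 replicate 1 or 2 of UM-UC-3 left out it was 0.063 or 0.0527. In RT112 ADAMTS1 was at 1.15 and 1.66 TPM in Scr and at 1.47 and 1.45 TPM in siPAI-1, with overlapping groups. The difference between the 2 effects had an unadjusted p of 0.32 in the limma interaction.

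In RT112, the members past the unadjusted threshold were MMP28 and MMP1. MMP28 was at 44.05 and 49.09 TPM in Scr and at 70.92 and 56.07 TPM in siPAI-1, a log2 difference of 0.44 ± 0.14 (limma, unadjusted p 0.0266, adjusted p 0.838). MMP1 was at 33.96 and 36.8 TPM in Scr and at 60.36 and 41.7 TPM in siPAI-1, a log2 difference of 0.50 ± 0.19 (unadjusted p 0.0497, adjusted p 0.838). In both genes replicate 1 of siPAI-1 was the highest library, and without it the log2 differences were 0.27 and 0.24 with unadjusted p of 0.139 and 0.115. Without RT112 Scr replicate 1 or 2, the unadjusted p was 0.232 or 0.14 for MMP28 and 0.309 or 0.236 for MMP1. Without the trend on the mean, it was 0.0797 and 0.113.

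MMP1 was the only member above a mean of 1 TPM past the unadjusted threshold when the lines were fitted together. In UM-UC-3 it was at 32.19 and 28.97 TPM in Scr and at 33.59 and 35.54 TPM in siPAI-1, so siPAI-1 lay above Scr in both lines. The shared log2 difference was 0.34 ± 0.12 (limma, unadjusted p 0.0241, adjusted p 0.895), and 0.20 without RT112 siPAI-1 replicate 1. Without RT112 Scr replicate 1 or 2 its unadjusted p was 0.0711 or 0.0538. In this fit, 2 of 57 members were higher at an unadjusted p under 0.05, where 2.57% of all genes were higher, and 0 were lower, where 2.41% were lower. The other was ADAMTS17, named for that count, which stayed at or under 0.33 TPM in every library.

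RT112 siPAI-1 replicate 1 stood apart from its partner for further members, which were picked after their values were seen. ADAM19 was at 41.83 and 40.98 TPM in RT112 Scr and at 20.03 and 35.93 TPM in siPAI-1, a log2 difference of -0.62 with a 95% interval from -1.38 to 0.13. TIMP2 was at 32.39 and 33.65 TPM in Scr and at 21.97 and 32.3 TPM in siPAI-1 (log2 difference -0.31, interval -0.83 to 0.21). MMP12 was at 1.86 and 1.68 TPM in Scr and at 3.84 and 1.68 TPM in siPAI-1, and MMP13 at 1.57 and 1.6 TPM and at 2.97 and 1.9 TPM. None of these passed the unadjusted threshold (limma), and in each the replicate 1 value lay farther from Scr than that of replicate 2. In other members, such as ADAM10, ADAM15, ADAM22, ADAM28, ADAMTS7 and MMP24, replicate 2 lay farther from Scr. Across genes, RT112 siPAI-1 replicate 1 correlated with replicate 2 at r = 0.9855 and with RT112 Scr replicates 1 and 2 at r = 0.9845 and 0.9844.

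The intervals show how large a change the well expressed members can hold. Of the 13 members that reached a mean of 10 TPM in UM-UC-3, 13 had a 95% interval of the siPAI-1 effect within 2-fold in either direction, and their estimates ran from -0.25 for MMP17 to 0.39 for ADAMTS1 on the log2 scale. In RT112 this held for 11 of 13, with MMP1 and ADAM19 as the others, and the estimates ran from -0.62 for ADAM19 to 0.50 for MMP1. MMP14 had an effect of -0.03 (interval -0.22 to 0.15) in UM-UC-3 and of 0.03 (interval -0.13 to 0.19) in RT112. TIMP1 had -0.05 (interval -0.18 to 0.08) in UM-UC-3 and 0.09 (interval -0.12 to 0.30) in RT112, and TIMP3 had -0.09 (interval -0.24 to 0.07) in RT112. For MMP14, TIMP1 and, in RT112, TIMP3 these intervals leave room for changes of less than 1.5-fold only.

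**Figure D5:**
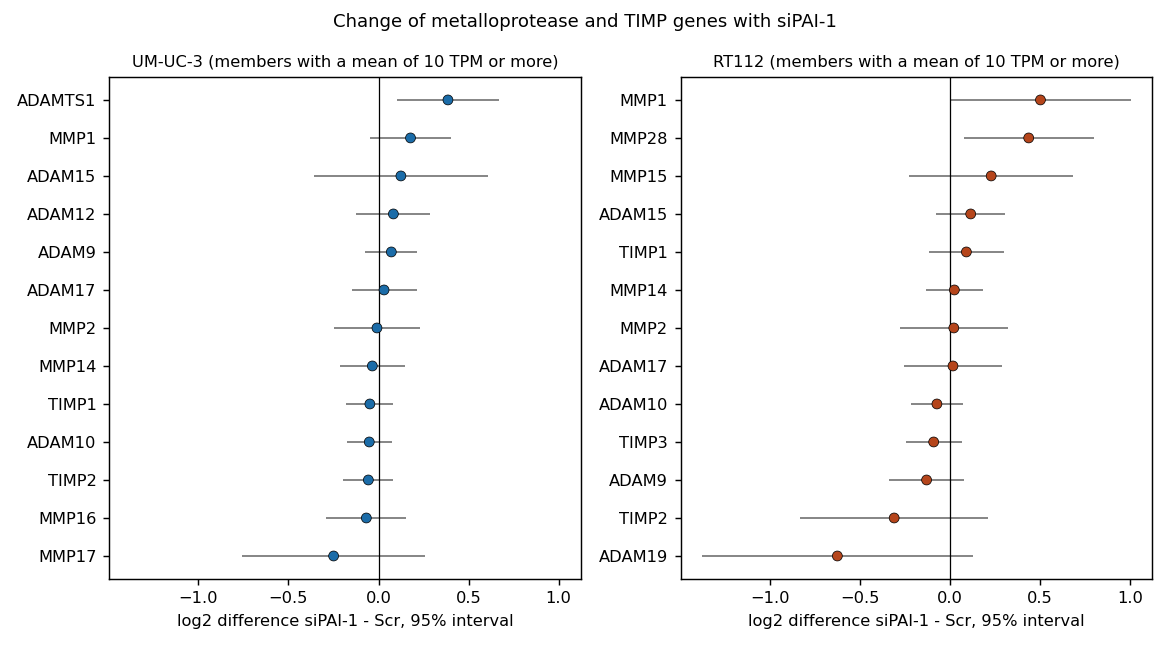
Log2 difference siPAI-1 minus Scr with its 95% interval (limma) for the 13 members whose mean reached 10 TPM in UM-UC-3 (left) and in RT112 (right). The estimates lie between -0.25 and 0.39 in UM-UC-3 and between -0.62 and 0.50 in RT112.

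Counted by overlap alone, 26 members reached a mean of 1 TPM in UM-UC-3, and in 5 both siPAI-1 libraries lay above both Scr libraries and in 6 below them, where this held for 17.4% and 20.4% of all 12067 genes at that level. Together these are 42.3% of the 26, against 37.8% of all genes. In RT112, 8 of 25 lay above and 5 below, where 20% and 17.3% of all 12198 genes did, or 52% against 37.3% in total. MMP1 lay above in both lines, and ADAM10 and TIMP2 lay below in both. MMP24 and ADAMTS16 lay on opposite sides in the lines, MMP24 below in UM-UC-3 and above in RT112 and ADAMTS16 the reverse. In the interaction fit, however, 0 of 57 members passed the unadjusted threshold for a different effect in the lines, where 4% of all 20274 genes had a higher effect in RT112 and 2.76% a lower one (6.76% together), and 0 passed the adjusted threshold (limma).

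The study's own lists of genes near PAI-1 binding that rose with knock-down hold several members, which were chosen on these samples and are not independent evidence of a direction. Their levels were low. From the UM-UC-3 list, ADAM28 was at 0 TPM in each Scr library and at 0.1 and 0.01 TPM in siPAI-1, MMP12 was above 0 in 1 UM-UC-3 library (0.03 TPM), and MMP13 in 1 (0.04 TPM). MMP3 was at 0.26 and 0.4 TPM in Scr and at 1.17 and 0.16 TPM in siPAI-1, so its libraries overlapped. ADAMTS9 was above 0 in 1 UM-UC-3 library (0.11 TPM), and ADAM29 was at or under 0.04 TPM. From the RT112 list, ADAM2 was above 0 in 1 library (0.2 TPM), ADAM20 in 1 RT112 library (0.02 TPM), ADAMTS12 was at 0 and 0.16 TPM in Scr and at 0.02 and 0.01 TPM in siPAI-1, and ADAMTS17 was at 0.09 and 0 TPM in Scr and at 0.12 and 0.33 TPM in siPAI-1. The highest of these values in the line of the list stands for an estimated 48.1 reads at most, that of MMP3. None of the 10 passed the unadjusted threshold in its line in limma. That test cannot decide for genes so near 0, because the 0.1 TPM added before the logarithm shrinks their differences. The study made its lists with another test, DESeq2, and its own fold-change and p-value cutoffs, so the results are not on a like footing.

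Genes that act on metalloproteases were read from a list of 26 activators, inhibitors and partners, of which 24 were tested. In Scr, 10 were higher and 11 lower in RT112, where 25.3% and 26.3% of all genes were, with a median log2 difference of -0.06, that of all genes. FURIN, the proprotein convertase that removes the propeptide of membrane-type MMPs and ADAMs, was at 10.75 and 10.69 TPM in UM-UC-3 Scr and at 82.96 and 89.37 TPM in RT112 Scr. PLAU, urokinase, a plasminogen activator, was at 557.93 and 531.97 TPM against 69.65 and 73.43 TPM. PLAT, tissue plasminogen activator, was at 11.87 and 11.09 TPM against 71.18 and 67.71 TPM, so that the transcripts of the 2 plasminogen activators differed in opposite directions. Their log2 differences were 2.99 ± 0.08, -2.93 ± 0.06 and 2.59 ± 0.08, with adjusted p of 0.00028, 0.000245 and 0.000322 in limma.

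Tetraspanins of the TspanC8 group escort ADAM10 to the cell surface and direct it to different substrates. TSPAN15 was at 2.02 and 2.01 TPM in UM-UC-3 Scr and at 84.19 and 85.21 TPM in RT112 Scr, and TSPAN14 at 17.25 and 15.22 TPM against 109.55 and 110.32 TPM. TSPAN5, named after its values were seen as a further member of the group, was at 20.62 and 22.08 TPM against 0.54 and 0.45 TPM. The log2 differences were 5.33 ± 0.09, 2.75 ± 0.09 and -5.18 ± 0.19, with adjusted p of 0.000242, 0.000331 and 0.000408 (limma). ADAM10 itself differed 1.61-fold, while these named partners differed more and in both directions. Other members of the group differed less. TSPAN17 had means of 59.5 TPM in UM-UC-3 Scr and 35.42 TPM in RT112 Scr (log2 difference -0.75 ± 0.09, adjusted p 0.00432 in limma). TSPAN33 had means of 1.685 and 6.11 TPM (log2 difference 1.82 ± 0.28, adjusted p 0.00831), and TSPAN10 did not pass the test (adjusted p 0.781). TFPI2, a secreted inhibitor of serine proteases, was at 2.19 and 1.63 TPM against 140.36 and 122.23 TPM (log2 difference 6.04 ± 0.18, adjusted p 0.000313).

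In the list of 15 other metzincins and ADAMTS-like proteins, 4 genes were higher and 2 lower in RT112 of 13 tested, where 51.6% of all genes differed in either direction, with a median log2 difference of 0 against -0.06 over all genes. Besides BMP1, ADAMTSL4, a matrix protein without protease activity, was at 0.51 and 0.89 TPM in UM-UC-3 Scr and at 15.03 and 14.77 TPM in RT112 Scr (log2 difference 4.27 ± 0.30, adjusted p 0.0012, limma). In the list of 15 AP-1 and ETS factors, transcription factor families known to act on MMP promoters, 8 were higher and 5 lower of 15 tested, against the same 51.6% of all genes, with a median log2 difference of 1.09 against -0.06 over all genes. The highest AP-1 transcript of UM-UC-3 Scr among those named was FOSL1, with 304.81 and 300.47 TPM against 74.7 and 67.6 TPM in RT112 Scr. JUN was at 198.48 and 176.36 TPM against 75.43 and 70.32 TPM, and JUND at 134.04 and 109.45 TPM against 32.24 and 34.48 TPM, while JUNB was at 30.39 and 25.06 TPM against 87.04 and 83.12 TPM. ETS1 was at 200.1 and 191 TPM against 24.98 and 23.8 TPM, and ETS2 at 4.18 and 4.45 TPM against 123.01 and 122.46 TPM. All 6 passed the test (adjusted p from 0.000242 to 0.00122), with FOSL1, JUN, JUND and ETS1 lower and JUNB and ETS2 higher in RT112. These 6 had the smallest p among list genes of at least 10 TPM. Of the others that passed at that level, ELF3, FOS, ATF3 and ETV4 were higher and ETV1 lower in RT112. ELF3 had the largest difference of the list, with means of 0.16 TPM in UM-UC-3 Scr and 191.915 TPM in RT112 Scr.

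With PAI-1 depletion, no gene of the list of other metzincins and none of the AP-1 and ETS factors passed the adjusted threshold or an unadjusted p under 0.05 in either line (limma). The knock-down counts of the list of activators, inhibitors and partners are not given here. In the limma interaction, 3 of its 25 genes tested had a higher effect in RT112 and 1 a lower one (unadjusted p under 0.05). Over all genes these shares were 4% and 2.76%, and 0 of the 25 passed the adjusted threshold. With the lines fitted together, JUNB was lower (log2 difference -0.22 ± 0.08, limma, unadjusted p 0.0186, adjusted p 0.895), where 2.41% of all genes were lower. In the limma interaction, JUND and FOSL2, 2 of the 15 AP-1 and ETS factors, had a higher effect in RT112, where 4% of all 20274 genes did. Their unadjusted p was 0.0392 and 0.04999, and neither passed the adjusted threshold (adjusted p 0.716 and 0.737).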

How the data were processed

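RNA-seq of 8 libraries was analysed from the authors' gene tables. According to the submitters' processing notes the authors used STAR 2.5.0 and RSEM 1.2.25 on GRCh38, while the methods name featureCounts, so the program behind the values is open. The authors deposited TPM, which was tested here, and FPKM, which served as an alternative and for estimating depth. The tables hold no counts. Of 27567 entries, 92 spike-ins were left out. Groups and replicate numbers came from the sample titles. The methods describe 3 independent knock-down experiments, but which of them the 2 libraries of a group come from is not given in the sources used here, so p-values measure the spread between these libraries.

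Values were tested as log2(TPM + 0.1) with limma 3.58.1 in R 4.3.3 (eBayes with trend, two-sided), over genes above 0 in at least 1 library fitted, with Benjamini-Hochberg adjustment over all of them. The fold changes on this scale understate the change of low genes. The fits were the lines in Scr, the lines in siPAI-1, siPAI-1 against Scr in each line, in both lines with the line as covariate, and the interaction. The limma fit was run on simulated data in which only genes of at least 1 TPM were changed, by 2-fold or more. That run, whose outcome is not given here, does not cover smaller changes or genes near 0. Depth was estimated from the steps of low FPKM values, searched between 20 and 45 M reads because a depth about 2 times larger also gives whole reads, and read numbers use the longest annotated transcript. Coordinates and promoters are RefSeq GRCh38.p14, with 66 members matched by symbol. The kit keeps strand, but whether counting used it is not stated. Summaries and figures were made in Python 3.11.15 (pandas 2.3.3, numpy 2.4.6, matplotlib 3.10.9).

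The members and lists were chosen with earlier results of these data known. Named with values, apart from a gene that is not reported here, are the TIMPs, members that reached a mean of 10 TPM in either line, the 10 members with the smallest p on each side of the line comparison in Scr with an adjusted p under 0.05 and at least 1 TPM, members with an unadjusted p under 0.05 and at least 1 TPM in a knock-down fit or the interaction, and at most 6 genes of each list with at least 10 TPM. The alternatives were pseudocounts of 1 and 0.01 TPM, FPKM, scaling by the median ratio, a mean of at least 1 TPM, 1 fit over all 8 libraries, eBayes without trend, a replicate block, and each library left out in turn.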

Additional observations from a re-analysis of the deposited data

How the results depend on the processing

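Each group holds 2 libraries, which limits all tests, and a left-out library leaves a lone sample that is assumed to vary like the others. Over 238 alternative values of 20 comparison results, 57 moved, and over 370 values of 31 named genes, 44 lost the call, 1 gained it (TIMP4 without RT112 Scr replicate 1) and 0 reversed. The causes were not tested.

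With a library left out, the line comparison in Scr gave 14 to 16 members higher and 10 to 12 lower in RT112 (12 and 11 without UM-UC-3 Scr replicate 1 and 2, 10 and 11 without RT112 Scr replicate 1 and 2). That in siPAI-1 gave 6 to 15 higher (6 and 7 without UM-UC-3 siPAI-1 replicate 1 and 2) and 14 to 15 lower. At an unadjusted p under 0.05 the knock-down gave 2 to 4 members higher and 0 to 1 lower in UM-UC-3, 1 to 6 higher (6 without RT112 siPAI-1 replicate 2) and 1 to 4 lower (4 without the same library) in RT112, and 1 to 3 higher and 0 to 1 lower in both lines together. After adjustment these counts were 0 to 0 in each. The interaction gave 0 to 3 higher, 0 to 3 lower and 0 to 1 after adjustment, which was ADAM2 without RT112 siPAI-1 replicate 2, a gene above 0 only in RT112 siPAI-1 replicate 1. The log2 ratio of summed levels ranged from 0.31 to 0.46 for MMP (0.46 without UM-UC-3 Scr replicate 1), 0.45 to 0.52 for ADAM, -0.78 to -0.65 for ADAMTS and 0.96 to 1.02 for TIMP.

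The 1 fit over all 8 libraries gave 0 members higher in UM-UC-3 and 1 higher and 1 lower in RT112. In RT112, pseudocounts of 1 and 0.01, FPKM and the median ratio each gave 1 higher, and a mean of at least 1 TPM gave 1 lower, and 1 higher in both lines. Without trend, 1 was lower in UM-UC-3, 0 higher in RT112, and 3 higher and 1 lower in the interaction, which had 1 lower with a pseudocount of 1. In the siPAI-1 libraries the log2 ratios were 0.57 for MMP, 0.38 for ADAM and -0.98 for ADAMTS. The ADAM ratio was 0.53 with the median ratio, and the TIMP ratio 0.96 with FPKM and 1.04 with the median ratio.

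Replicates of the same number did not deviate together (correlation of their differences 0.0559 in UM-UC-3 and -0.0456 in RT112). The replicate block gave 17 higher and 19 lower in Scr, 16 and 18 in siPAI-1, and 1 higher in the interaction, and changed no other count of calls by over 1.5 times.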

Other observations

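Some members differed widely between replicates of a group. ADAM8, a protease of leukocytes, was at 1.93 and 0.08 TPM in UM-UC-3 Scr, 0.12 and 0.45 TPM in UM-UC-3 siPAI-1, 2.6 and 0.89 TPM in RT112 Scr and 2.23 and 1.15 TPM in RT112 siPAI-1. MMP19 was at 3.24 and 0.63 TPM in RT112 Scr and at 3.31 and 1.17 TPM in RT112 siPAI-1, and at 0.4 to 0.52 TPM in UM-UC-3. MMP11, a stromelysin-like enzyme of tumour stroma, was at 1.68 and 0.38 TPM in RT112 Scr and at 0.44 and 0.58 TPM in RT112 siPAI-1, and was listed at 0 in 3 of the UM-UC-3 libraries. MMP19 did not pass the line comparison in Scr (adjusted p 0.224), and its 4 RT112 values lay above its 4 UM-UC-3 values.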
